A study of Homo sapiens with 2 samples.

Results

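The genes described were 10 that encode feedback regulators and feedback targets of the RAS-ERK pathway: SPRED1, SPRED2, SPRY1, SPRY2, SPRY4, DUSP4, DUSP5, DUSP6, ETV4 and ETV5. Their probes were taken by gene name, with every transcript probe of these names kept, and the set of genes was proposed with earlier results of these arrays known. All 10 names were found on the array, at 14 of its 40976 probes with values, among 30967 gene names. SPRED1, SPRED2, ETV4 and ETV5 had 2 probes each and the other 6 genes had 1 probe each.

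In this pathway, growth factor receptors load RAS with GTP, RAS activates the RAF kinases, and the signal passes through MEK to the kinase ERK, which changes transcription. Active ERK switches on genes whose products dampen the same pathway, so the transcripts of Sprouty genes, of DUSP phosphatases and of the ETS factors ETV4 and ETV5 are often read as a gauge of ERK output. In the developing eye, FGF receptors signal through this pathway in lens and retina.

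One array was hybridized with RNA from untreated Y79 cells and 1 with RNA from Y79 cells collected 48 h after treatment with an siRNA against Ep-CAM, listed under the older gene name TACSTD1. Y79 is a long-established line of human retinoblastoma, the childhood tumor of the retina, and it is kept in suspension. As the study's methods describe, the Y79 cells of both arrays had been exposed to the DNA demethylating agent 5′-azacytidine, which the sample labels do not mention. The comparison asks how the transcripts of the pathway's own brakes differed between these RNAs. The study used a scrambled control siRNA in other assays, but neither array here is of cells given it. Transfection as such and the Ep-CAM siRNA therefore cannot be told apart in any ratio below. With 1 array per condition there was no replicate check and no test between conditions, and the small number of arrays sets how precise any ratio can be.

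A signal below is the processed brightness of a spot in arbitrary units, after the background was subtracted. Its ± is the error estimate that the extraction software gave for that single spot and does not cover differences between cultures. A ratio is siRNA-treated over untreated, after each array was divided by its median over transcript spots (48.9 and 50.0). A probe was measured when its spot was well above background on both arrays. A probe below that mark on 1 array has no measured ratio. Its dim side was raised, where lower, to the array's lowest signal flagged well above background, which gives a bound. A bound leaves out the spot errors, so the difference can be smaller. Where the dim side was already above that level, the value is the plain ratio of the signals. A probe was called at a log2 ratio of at least 1 or at most -1. Signals of different probes depend on the probe as well as on the transcript and are not compared with each other.

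Across all 26975 measured probes the log2 ratio had a median of -0.03 and an SD of 0.33, with 5% of probes below -0.57 and 5% above 0.44. Repeated spots of the same probe differed less, with a technical SD of 0.14 over 191 probes. One corner of the array, its last 178 of 532 rows and last 43 of 85 columns, had a wider spread (SD 0.51 against 0.29 outside it) and held 5 of the 14 probes. The siRNA's target could not check the labels, since TACSTD1 gave 15.6 in untreated and 12.0 in treated cells, below the mark for well above background on both arrays. GAPDH had a log2 ratio of -0.03, and the measured ACTB probes had ratios of -0.32, -0.22 and 0.02.

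SPRED1 was the one gene of the 10 with a called probe, and its signal was lower after Ep-CAM siRNA. The study's own list of downregulated genes includes SPRED1. SPRED1 binds neurofibromin, the RAS GTPase-activating protein encoded by NF1, and brings it to the membrane, where it turns RAS off. Its 2 probes, named a and b here, are both shown by their first 30 bases because they read the same transcript with different outcomes. Probe a, A_23_P54460, is at chr15:36431184-36431243 and probe b, A_24_P107859, is at chr15:36433052-36433111, both on the plus strand of build hg17, the build of the array design. An annotation of that build was not used here, so the exon or untranslated region under each probe is not given.
SPRED1 probe a: aaatctttgtttccaggaattagctaactt
SPRED1 probe b: tactgtttatatatttgaatgctgctacaa

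SPRED1 probe a gave a signal of 63.3 ± 7.44 in untreated cells and 26.6 ± 5.28 in siRNA-treated cells, well above background on both arrays. The treated signal lay below the untreated one by more than both error estimates together. The log2 ratio was -1.29 ± 0.33, a 2.44-fold lower signal, so that 1 error estimate to either side reached from -1.62 to -0.95. SPRED1 probe b gave 24.1 ± 4.39 in untreated cells and 16.7 ± 4.47 in treated cells, where it was not well above background. With that dim side raised to the array's lowest signal flagged well above background, probe b was 1.41-fold lower, which did not reach the threshold. The error ranges of its signals overlapped, and the log2 ratio of the signals was -0.56 ± 0.47. It was -0.19 from the series' own table and -0.16 with a pseudocount of 1. Both SPRED1 probes had the lower value on the treated array, 1 of them as a call and 1 as a bound, but probe b turned to 0.13 on the log2 scale under normexp background correction. In bulk RNA, fewer cells with a transcript and less of it per cell cannot be told apart.

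Both SPRED1 spots were dim, and the size of the difference depended on how the background was removed. Before subtraction, probe a had a brightness of 130 in untreated and 96.7 in treated cells, on a local background of 37.5 and 36.0. The negative control spots, which match no transcript, had a median brightness of 71.3 and 71.9 on the same arrays. From the brightness values of the series' own table, which are not background-subtracted, the log2 ratio of probe a was -0.47. With 1 added to each scaled signal it was -0.58, and in the normexp fits -0.29 and -0.47. None of these passed the threshold, while the direction of probe a stayed the same. Of the 2697 measured probes whose mean signal was most like that of probe a (1 of 10 equal bins), 0.408% were at or below -1, and 5% lay below -0.50.

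The place of SPRED1 probe a on the array, row 79 and column 30, was outside the corner. The 128 measured spots within 10 rows and 5 columns of it had a median log2 ratio of -0.06 and an SD of 0.23, and 0 of them passed the threshold in either direction. Relative to that local median, the SPRED1 ratio was -1.23. Probe b, at row 114 and column 40, was also outside the corner, with a local median of -0.03.

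SPRED2, which shares the domains of SPRED1 and also restrains RAS-RAF signaling, had 1 probe dim on both arrays and 1 probe dim in untreated cells only. Probe a, at chr2:65473447-65473506, gave 8.03 and 6.83, and no ratio was taken. Probe b, at chr2:65450502-65450561, gave 20.1 ± 4.52 in untreated cells, not well above background, and 38.1 ± 5.82 in treated cells. Its signal was 1.85-fold higher, a log2 ratio of 0.89 ± 0.39, short of the threshold. The untreated signal already lay above the level to which a dim side was raised, so this value is no minimum. The difference depended on the background as for SPRED1, with log2 ratios of 0.32 from the series' own table, 0.32 with a pseudocount of 1, and 0.38 and 0.23 in the normexp fits. At the lower threshold of the series text, a ratio of 1.5, SPRED2 probe b was the 1 member called higher. The share of all probes called at that ratio is not given here, so the call is not set against the array. The spot of probe b lay at row 525 and column 32, near the array's lower edge but outside the corner. The 124 measured spots around it had a median log2 ratio of 0.21. Relative to that median its log2 ratio was 0.68, and the part of position in it was not tested. SPRED2 probe b was above 0 under each of these settings.

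**Figure D1:**
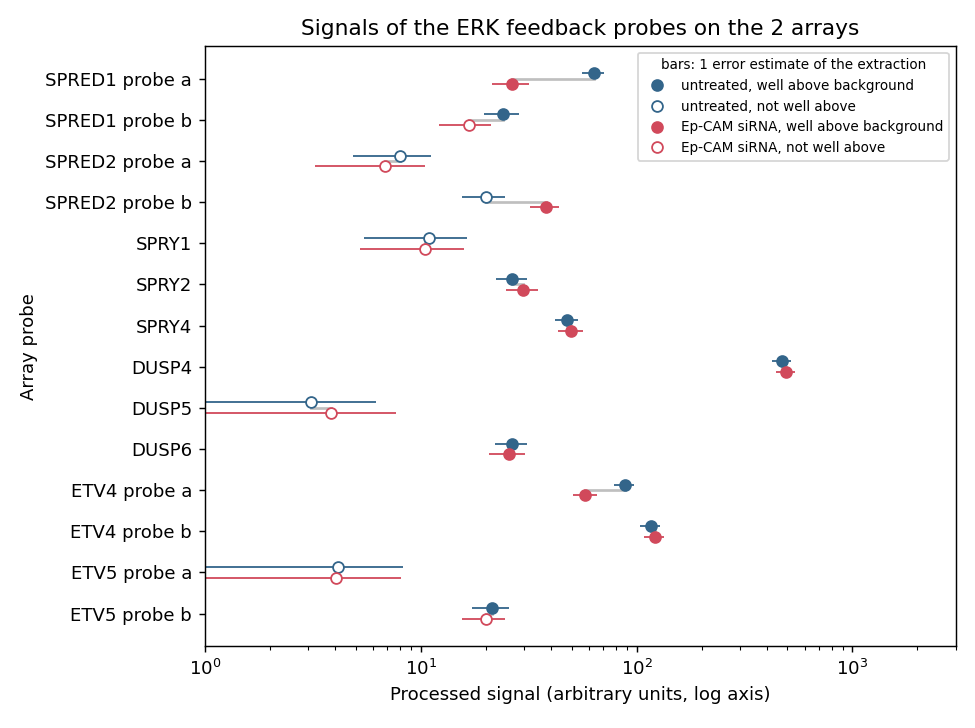
Processed signal (arbitrary units, log axis) of the 14 probes of the 10 genes on the untreated array and the Ep-CAM siRNA array, with bars of 1 error estimate of the extraction software and open circles where the spot was not well above background. SPRED1 probe a (63.3 and 26.6) has separate bars, while DUSP4 (470 and 492) and ETV4 probe b (116 and 121) nearly coincided, and the bars of DUSP5 and ETV5 probe a run off the left edge.

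The Sprouty proteins act between the receptor and RAF and are made in response to the signal they restrain. Their transcripts showed small differences where they could be measured. SPRY2, at chr13:79808623-79808682, gave 26.6 ± 4.34 in untreated and 29.8 ± 4.93 in treated cells. These error ranges overlapped, and the log2 ratio was 0.13 ± 0.34. SPRY4, at chr5:141670755-141670814, gave 47.7 ± 5.82 and 49.9 ± 6.52, with a log2 ratio of 0.03 ± 0.26. SPRY1, at chr4:124682099-124682158, gave 11.0 and 10.5 and was well above background on neither array, so no ratio was given. The SPRY1 spot also lay in the corner, where 17 of the 115 measured spots around it were at or above 1 and 4 at or below -1.

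The DUSP genes encode phosphatases that remove the activating phosphates of MAP kinases, DUSP6 in the cytoplasm on ERK, DUSP5 in the nucleus on ERK, and DUSP4 in the nucleus on ERK and other MAP kinases. DUSP4 gave 470 ± 47.1 in untreated and 492 ± 49.3 in treated cells. Its log2 ratio was 0.03 ± 0.20, within the technical spread of repeated spots. DUSP6, at chr12:88244612-88244671, gave 26.5 ± 4.45 and 25.6 ± 4.81, a log2 ratio of -0.09 ± 0.36. Its spot lay in the corner, among neighbours with a median of -0.18. DUSP5, at chr10:112260890-112260949, gave 3.1 and 3.9, both not well above background, and no change could be shown at that signal.

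ETV4 and ETV5 are ETS transcription factors of the PEA3 group, whose transcripts rise with FGF and ERK signaling in many tissues. ETV4 had 2 measured probes on the minus strand that disagreed, and their first 30 bases are shown because they lie close together on chromosome 17. Probe a, A_23_P431776, is at chr17:38961317-38961376 and probe b, A_24_P416346, is at chr17:38961492-38961551.
ETV4 probe a: tgccctgtgtacatataaatgaatctggtg
ETV4 probe b: tctcaaggctgagtttgaccggcctgtcag

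ETV4 probe a gave 87.9 ± 9.66 in untreated and 58.0 ± 7.32 in treated cells, a log2 ratio of -0.64 ± 0.24 that did not reach the threshold. It was -0.25 from the series' own table, -0.38 with a pseudocount of 1, and -0.24 and -0.20 in the normexp fits. ETV4 probe b gave 116 ± 12.2 and 121 ± 12.8, a log2 ratio of 0.03 ± 0.22. The lower value was thus seen at 1 of the 2 ETV4 probes. Probe a lay in the corner, at row 500 and column 45, where the 132 measured spots around it had a median of -0.34 and 11 of them were at or below -1. Relative to these spots the ETV4 ratio of probe a was -0.29. Probe b lay outside the corner, at row 101 and column 46, with a local median of -0.03. The part of position in the difference between the ETV4 probes was not tested.

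ETV5 gave no measured ratio. Its probe a gave 4.13 and 4.04, dim on both arrays. Its probe b, at chr3:187247249-187247308, gave 21.4 ± 4.19 in untreated and 20.1 ± 4.54 in treated cells, dim in the latter. Those error ranges overlapped, the log2 ratio of the signals was -0.13 ± 0.43, and no direction is given for ETV5, since normexp background correction put it at 0.23. Both ETV5 spots lay in the corner.

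Of the 14 probes, 7 were measured on both arrays, 3 were dim on 1 array and 4 were dim on both. Thus 10 probes passed the filter of being well above background on at least 1 array, and SPRY1 and DUSP5 could not be followed at any probe. Among these 10 probes, 1 was called lower, against 0.927% of all 29345 probes tested, and 0 were called higher, against 1.27%. A single call among 10 probes is too few to set the genes apart from the array. The 7 measured ratios had a median of 0.03, beside -0.03 over all measured probes, with 3 below 0 and 4 above it. Of the 7, 5 lay within 0.28 of 0, which is 2 technical SDs of the repeated probes, and the exceptions were SPRED1 probe a and ETV4 probe a. The error estimates of the 7 ratios themselves, from 0.20 (DUSP4) to 0.36 (DUSP6), were wider than that technical SD. Outside the corner, 5 measured probes remained, and their median was 0.03.

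**Figure D2:**
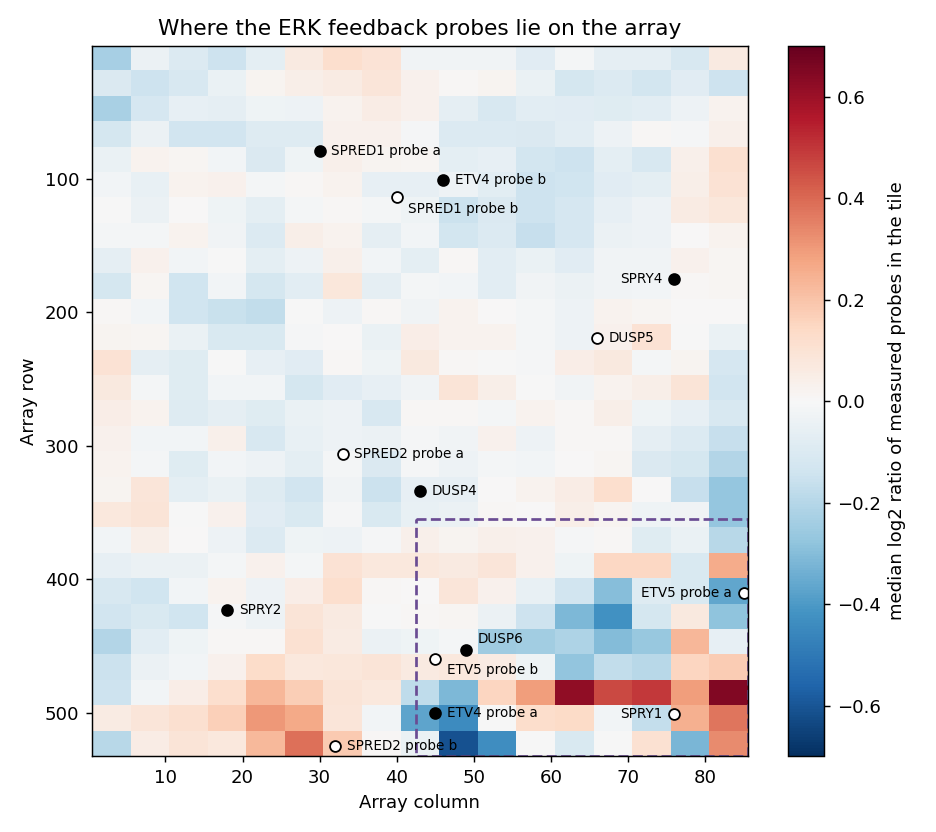
Position of the 14 probes on the array (row and column), filled where measured on both arrays and open where not, over the median log2 ratio of measured probes in tiles of 19 rows and 5 columns, with the corner outlined. Tile medians ran from -0.61 to 0.65 with the strongest colours in the lower rows. SPRED1 probe a, ETV4 probe b, SPRY4, DUSP4 and SPRY2 lie on pale tiles, as do DUSP6 and ETV5 probe b inside the corner.

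The stretch of genome before SPRED1 was read because SPRED1 held the call. RefSeq sequence (GRCh38.p14) of 250 bases before the start site was given for SPRED1, SPRED2, SPRY1, SPRY2, SPRY4 and DUSP6, at 10 start sites in all, and the DUSP4, DUSP5, ETV4 and ETV5 entries are not analysed here. The SPRED1 window is chr15:38252586-38252835 on the plus strand, with capitals marking a GC box, GGGCGG on the other strand.
SPRED1 upstream: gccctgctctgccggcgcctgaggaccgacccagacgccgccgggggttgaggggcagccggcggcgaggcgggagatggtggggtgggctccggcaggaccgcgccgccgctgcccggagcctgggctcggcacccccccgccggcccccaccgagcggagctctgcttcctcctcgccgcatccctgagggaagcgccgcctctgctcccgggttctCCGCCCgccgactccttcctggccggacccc

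The SPRED1 window had 78.4% G and C and 30 CpG dinucleotides, the upper end of the member windows, which ran from 39.2% and 3 CpG. Over all 35116 such windows the medians were 58.0% and 11 CpG. Read on both strands, an ETS core written CCGGAAG was in 1 of the 10 member windows, a SPRY1 start site, and in 8.52% of all windows. A GC box was in 4 of the 10 and in 42.6% of all. A CRE written TGACGTCA was in 0 of the 10 (1.65% of all), and an AP-1 site written TGANTCA was in 0 of the 10 (6.57% of all). Motifs were counted separately, whether or not they overlapped, and these letters describe the windows only.

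The rest of the pathway was read from 4 lists, of related feedback genes, receptor tyrosine kinases, the RAS-RAF-MEK-ERK cascade, and genes that ERK output is known to switch on. They held 72 of 74 listed genes on 134 probes, since SPRED3 and SOS2 were not matched. Of these probes, 105 were well above background on at least 1 array, 2 were called lower (1.90%, beside 0.927% of all probes) and 0 were called higher (1.27% of all). The 96 measured ratios had a median of -0.06, and 87 of them lay within 0.5 of 0.

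Among 12 other genes of the same families and feedback regulators, 11 were measured, on 16 probes, with a median log2 ratio of -0.11 and a range from -2.10 to 0.18. The call was DUSP1, a phosphatase of ERK, p38 and JNK, which gave 226 in untreated and 54.2 in treated cells, a log2 ratio of -2.10. DUSP1 was in the corner. The 120 measured spots around it had a median of 0.39 and an SD of 0.75, with 19 of them called higher and 3 called lower. The part of position in the DUSP1 value was not tested. One probe of DUSP2, a nuclear MAP kinase phosphatase, gave 2736 and 1625 (log2 ratio -0.79), while its other probe gave 227 and 212 (-0.13). DUSP10, which prefers p38 and JNK, gave 1108 and 725 (-0.65). Like ETV4, DUSP2 differed between its probes, here with both spots outside the corner.

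Upstream of the feedback genes, 24 measured probes of 14 receptor genes, of 19 found, ranged from -0.46 to 0.42 with a median of -0.01, and 0 were called. They included FGFR2, with 392 and 402 at 1 measured probe (log2 ratio 0.00) and 28.7 and 21.4 at the other, in the corner (-0.46). The neurotrophin receptor NTRK2 had log2 ratios of 0.03 and 0.11 at its measured probes. In the cascade itself, 38 measured probes of 28 genes, of 30 found, ranged from -0.81 to 0.50 with a median of -0.08, and 0 were called. RPS6KA3, the kinase RSK2 that ERK activates, had log2 ratios of -0.15 and -0.81 at its 2 probes, and RASA1, a RAS GTPase-activating protein, had -0.43. NF1, through which SPRED1 acts on RAS, was measured at 1 of its 3 probes, with 446 in untreated and 429 in treated cells and a log2 ratio of -0.09. NF1 was added to the named genes after its values had been seen.

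Of the 11 ERK output genes, 10 were measured, on 18 probes, with a median of -0.07 and a range from -2.42 to 0.68. FOS, an immediate early AP-1 subunit, gave 2372 in untreated and 454 in treated cells, a log2 ratio of -2.42. It was the call of this list, and its 125 neighbours had a median of -0.09. EGR1, an immediate early zinc finger factor, gave 10008 and 7562, a log2 ratio of -0.44. FOS and DUSP1 were thus called lower. Of the measured member probes, SPRED1 probe a had a log2 ratio of -1.29, ETV4 probe a -0.64 and ETV4 probe b 0.03. The SPRY2, SPRY4, DUSP4 and DUSP6 probes had log2 ratios between -0.09 and 0.13, each within 1 error estimate of 0.

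**Figure D3:**
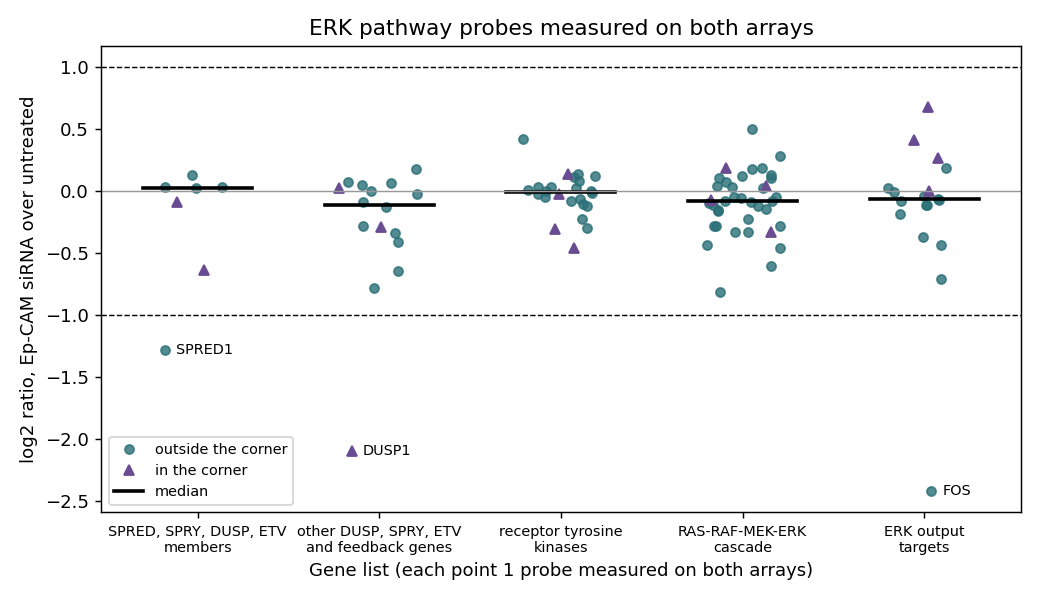
Log2 ratio (siRNA over untreated) of each probe measured on both arrays, for the 10 feedback genes (7 probes) and the 4 other pathway lists (96 probes), with medians as black bars, triangles for probes in the corner and dashed lines at the call threshold. SPRED1, DUSP1 and FOS are the points below -1, no point is above 1, and the list medians lie between -0.11 and 0.03.

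The cells were checked against markers. Of 12 photoreceptor lineage genes, 11 were found on 12 probes, of which 5 were measured and 6 were dim on both arrays. CRX, the photoreceptor transcription factor, gave 86.8 and 68.7 (log2 ratio -0.37), OTX2, in the corner, had -0.47, ARR3 -0.21, DCX -0.12 and AIPL1 0.15, while NRL, RCVRN, RXRG, PDE6H and SYP were dim on both arrays. The summed signal of the list, over all its probes with dim ones included and before scaling, was 499 in untreated and 442 in treated cells. Bright probes weigh most in such a sum. Of 11 genes that mark other cell types, on 18 probes, 11 probes were measured and 7 were dim on both, among them those of PECAM1 and RPE65. The measured probes included those of TYR (327 in untreated and 360 in treated cells), GFAP (103 and 102) and RLBP1 (95.6 and 110). COL1A1, COL1A2, CD68, KRT5, KRT14 and PTPRC also had measured probes. Both lists held measured and dim probes, so these markers do not settle which cells were present. The 11 ratios of the other cell type markers had a median of 0.01, with 6 above 0. Summed in the same way, that list gave 1573 and 1436, a drop smaller than that of the KRT14 probes alone. These gave 181 and 50.5 (-1.88) and 508 and 429 (-0.28). The part of either list in the SPRED1 value was not tested.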

How the data were processed

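RNA of untreated Y79 cells and of Y79 cells 48 h after Ep-CAM siRNA was hybridized in 1 color to 1 Agilent whole-genome array each, and samples were grouped by their labels. The deposited files hold the spot intensity that the authors extracted with Agilent Feature Extraction (9.5.3.1 in the file headers, another version in the series text), background-subtracted and not scaled between arrays, with positions on hg17. The series' own value table was compared with these columns and holds raw median spot brightness.

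Here, control spots and spots marked as outliers were dropped, processed signals were divided by the array's median over transcript spots, a floor of 0.01 was set, and log2 ratios were taken. A probe's spots were averaged. Where a probe was dim on 1 array, its dim side was raised, if below it, to that array's lowest signal flagged well above background (14.9 and 17.5). Error estimates were propagated to the ratio. With 1 array per condition no test was made, and the t-test named in the study's methods could not be run. The study's text mentions biological replicates for the array work, and 1 array per condition was analysed here. Of the transcript spots, 70.4% and 68.0% were well above background.

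All probes of the 10 genes are named, and of the other lists the genes with a called probe and the 2 genes with the highest probe signal per list, with TACSTD1, GAPDH, ACTB and cell type markers as checks. The members and lists were chosen with earlier results of these data known. Alternatives were other scalings, a pseudocount of 1, normexp background correction (limma 3.58.1 in R 4.3.3, offset 50), the series' value table, other filters on dim probes, other thresholds, other probe choices, and a local median or no corner to allow for position. The code that makes the calls was tested on simulated data, which does not bear on how reliable the calls are. Python 3.11.15 with pandas 2.3.3 and numpy 2.4.6 was used.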

Additional observations from a re-analysis of the deposited data

How the results depend on the processing

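The SPRED1 call was lost, leaving 0 member probes called lower, under a pseudocount of 1 (log2 ratio -0.58), under normexp background correction (-0.29), under normexp fitted again after dropping 1 spot that was darker than its surroundings, an alternative chosen after seeing the data (-0.47), and with the value table of the series (-0.47). Under the other 9 settings that gave a value it stayed between -1.29 and -1.23. Those 9 kept the same background-subtracted signals and changed only scaling, filter or position. They therefore could not show whether the call depends on the background. The first normexp fit moved the median of all measured probes to -0.20, the members' median to -0.22 and the count of other pathway genes called lower from 2 to 7. Over all probes, the same fit moved the count called lower from 272 to 1056. Under the remaining 14 settings the members' median ran from -0.08 to 0.06. Without a filter on dim probes 2 other pathway genes were called higher, beside 1049 of all probes, and 3 lower, beside 1016. At ratios of 1.5 and 0.55, 2 other pathway genes and 1 member probe, of SPRED2, were called higher. The count over all probes at those ratios is not given here. Without the corner 1 other pathway gene, FOS, was called lower, beside 164 of all probes. These counts are of genes for the pathway and of probes for the array, without shares, so no result about the pathway is drawn from them. Among the dim probes, the signals of SPRED1 probe b and ETV5 probe b turned above 0 under the first normexp fit (0.13 and 0.23). There DUSP4, SPRY4 and ETV4 probe b also turned below 0 (-0.50, -0.10 and -0.22) and DUSP6 above it (0.18), none of them called. The causes were not tested. No paired analysis was possible because each condition has 1 array, and no array could be left out. Dim signal limits 7 of the 14 probes: 4 have no ratio and 3 were dim on 1 array, so that SPRED2, SPRY1, DUSP5 and ETV5 have no measured ratio. Of those 3, SPRED1 probe b has a bound, and SPRED2 probe b and ETV5 probe b have the plain ratio of dim signals.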
